A study of Homo sapiens with 25 samples.

Results

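Oxidative phosphorylation is carried out by 5 protein complexes of the inner mitochondrial membrane, and most of their subunits are encoded in the nucleus. The genes described here were chosen by a rule on gene names, as standard symbols of nuclear-encoded subunits. The choice was made with earlier results of these data known. Of the 59427 gene names in the expression table, 74 matched. They comprise 36 genes of complex I, 4 of complex II, 8 of complex III, 11 of complex IV and 15 of complex V. NDUFA4 carries a complex I name but was counted with complex IV, where its protein is now placed. All 74 had a mean of at least 1 TPM in each cell line and were tested.

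Complexes I and II pass electrons from NADH and succinate to ubiquinone, complex III passes them on to cytochrome c, and complex IV passes them to oxygen. Complexes I, III and IV pump protons across the membrane, and complex V, the ATP synthase, uses the return flow of protons to make ATP. Complex II also catalyses a step of the citric acid cycle and is the only complex with no subunit encoded in mitochondrial DNA. The subunits are assembled in fixed ratios with the help of dedicated assembly factors, and many of their promoters hold sites for the transcription factors NRF1, GABP (an ETS factor) and YY1.

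Established lines of non-small cell lung cancer were used, A549 from an adenocarcinoma and NCI-H460 from a large cell carcinoma, and their RNA was sequenced 24 h after transfection with an antisense oligonucleotide (ASO) at 25 nM. An ASO base-pairs with a chosen RNA and leads to its cleavage. In each line the groups were candidate 42 ASO3 and ASO5 (target named CHiLL1), candidate 240 ASO1 and ASO3 (target named CHiLL2), and a neutral control ASO from Qiagen, each with 3 libraries in A549 (n = 3) and 2 in NCI-H460 (n = 2). No group was left untransfected. Nothing states that replicate libraries came from separate cultures, so p-values measure only the spread between these libraries.

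Values are TPM, transcripts per 1e6 corrected for transcript length, which the authors had rescaled between libraries. Column sums ran from 924350 to 1179224, between 23879 and 27731 names had a value above 0, and the number of reads behind a value is unknown. Epithelial markers summed to 4670 to 7690 TPM in A549 and 1410 to 1840 TPM in NCI-H460. The leukocyte list summed to 20 to 77.6 TPM in A549 and 19.1 to 44.1 TPM in NCI-H460, with 1 of its 5 markers at a mean of 1 TPM or more and CD3E and MS4A1 at 0 in all libraries. The alveolar list summed to 1.4 to 4.42 TPM in A549, again with 1 of 5 at 1 TPM or more, and 0.229 to 1.12 TPM in NCI-H460, with SFTPA1 at 0 throughout. Fibroblast markers summed to at most 10.7 TPM, with 1 of 5 at a mean of 1 TPM or more in A549 and 3 of 5 in NCI-H460. Endothelial markers summed to at most 0.802 TPM. On the first principal component of A549, candidate 240 ASO3 replicate 3 stood apart at 71.9, while replicates 4 and 5 lay at 10.5 and 11.7. In NCI-H460 the candidate 42 ASO3 libraries stood at 72.2 and 38.7, against -28.5 to 3.1 for the other 8. AC107959.3, taken as candidate 42, averaged 0.65 ± 0.583 TPM with candidate 42 ASO3, 3.42 ± 1.21 with 42 ASO5, 6.14 ± 1.09 with 240 ASO1 and 14.4 ± 1.49 with 240 ASO3 in A549, against 7.61 ± 2.76 in control libraries (SD, n = 3 each). In NCI-H460 it averaged 0.529 ± 0.0176 TPM with 42 ASO3, 1.67 ± 0.3 with 42 ASO5, 4.4 ± 2.14 with 240 ASO1 and 5.94 ± 0.846 with 240 ASO3, against 1.75 ± 0.825 in control libraries (SD, n = 2 each). There the 42 ASO5 libraries overlapped with control, so a lower target level was seen with 42 ASO3 only, and both candidate 240 groups lay above control. AC015712.6, taken as candidate 240, averaged 0.185 ± 0.0609 TPM with ASO1 and 0.0154 ± 0.0149 with ASO3, against 0.347 ± 0.0757 in A549 control libraries (SD, n = 3 each), below the level needed for a test. In NCI-H460 it averaged 0.0865 ± 0.00699 TPM with ASO1 and 0.0465 ± 0.0418 with ASO3, against 0.078 ± 0.0407 in control libraries (SD, n = 2 each), with overlap for both ASOs, so a lower level of this target was not seen in that line. In bulk RNA, fewer cells of a kind and less RNA per cell cannot be told apart.

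The promoters of 5 members are printed because these genes carried the ASO differences described below: SDHD and NDUFA11 with candidate 240 ASO3 in A549, and NDUFS1, UQCRC1 and NDUFA8 with candidate 42 ASO3 in NCI-H460. Each window holds 250 bases before and 50 after a RefSeq gene start, 5′ to 3′ on the gene's strand (build GRCh38.p14). Capitals mark matches, on either strand, to the NRF1 motif GCGCANGCG, the ETS motif CCGGAAG or the YY1 motif AAGATGGC. The windows are chr11:112086623-112086922 on the plus strand for SDHD, and on the minus strand chr19:5903741-5904040 for NDUFA11, chr2:206159395-206159694 for NDUFS1, chr3:48609597-48609896 for UQCRC1 and chr9:122159730-122160029 for NDUFA8.
SDHD: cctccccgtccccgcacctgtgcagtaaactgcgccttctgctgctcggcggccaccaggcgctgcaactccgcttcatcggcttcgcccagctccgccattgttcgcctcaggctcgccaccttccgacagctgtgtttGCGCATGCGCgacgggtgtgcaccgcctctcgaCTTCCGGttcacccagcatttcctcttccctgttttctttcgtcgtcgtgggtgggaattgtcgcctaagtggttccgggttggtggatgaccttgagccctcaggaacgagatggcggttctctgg
NDUFA11: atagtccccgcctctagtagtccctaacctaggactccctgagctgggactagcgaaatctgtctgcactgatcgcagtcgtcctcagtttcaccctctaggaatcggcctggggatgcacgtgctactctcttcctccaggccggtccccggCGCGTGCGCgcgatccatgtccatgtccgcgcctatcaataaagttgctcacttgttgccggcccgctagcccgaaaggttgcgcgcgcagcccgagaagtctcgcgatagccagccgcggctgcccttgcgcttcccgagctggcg
NDUFS1: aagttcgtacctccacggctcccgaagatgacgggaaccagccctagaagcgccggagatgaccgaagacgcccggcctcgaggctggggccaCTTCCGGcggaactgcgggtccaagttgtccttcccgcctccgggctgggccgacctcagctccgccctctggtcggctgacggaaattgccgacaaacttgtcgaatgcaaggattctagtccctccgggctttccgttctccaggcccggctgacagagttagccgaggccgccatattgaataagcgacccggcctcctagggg
UQCRC1: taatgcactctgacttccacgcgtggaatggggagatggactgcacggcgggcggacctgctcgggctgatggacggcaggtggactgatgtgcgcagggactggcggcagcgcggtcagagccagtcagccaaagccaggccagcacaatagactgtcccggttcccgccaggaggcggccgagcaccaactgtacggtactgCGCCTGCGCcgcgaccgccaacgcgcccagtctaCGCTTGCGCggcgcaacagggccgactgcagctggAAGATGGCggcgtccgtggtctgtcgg
NDUFA8: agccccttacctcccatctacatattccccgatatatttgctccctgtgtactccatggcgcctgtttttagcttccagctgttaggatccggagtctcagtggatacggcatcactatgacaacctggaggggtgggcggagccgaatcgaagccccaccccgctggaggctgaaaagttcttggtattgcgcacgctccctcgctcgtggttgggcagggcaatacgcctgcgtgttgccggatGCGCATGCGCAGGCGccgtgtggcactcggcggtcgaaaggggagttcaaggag
SDHD held an NRF1 match read on both strands and an ETS match, NDUFA11 a single NRF1 match, and NDUFS1 an ETS match and no NRF1 match. UQCRC1 held 2 NRF1 matches and a YY1 match just past its start, and NDUFA8 held 3 overlapping NRF1 matches.

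RefSeq promoters were found for 61 of the 74 members, in 73 windows of 300 bases. Of these 61 genes, 34.4% held the NRF1 motif, 32.8% the ETS motif and 19.7% the YY1 motif in at least 1 window. Counted by window, 28.8%, 28.8% and 17.8% of the 73 member windows held them. Among all 35116 promoter windows of the table the shares were 7.52%, 10.3% and 2.89%. Among the 22 members with a promoter that were called with candidate 240 ASO3 in A549 or candidate 42 ASO3 in NCI-H460, 40.9% held the NRF1 motif, 36.4% the ETS motif and 13.6% the YY1 motif. Among the 39 that were not called the shares were 30.8%, 30.8% and 23.1%. These are counts of letters in a window, and the differences between called and uncalled members were not tested.

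Under the control ASO the members were spread over about 2 orders of magnitude. In A549 the most abundant of each complex were NDUFB2 of complex I (551 ± 134 TPM), SDHC of complex II (154 ± 11.5), UQCRQ of complex III (663 ± 106), COX6B1 of complex IV (1283 ± 230) and ATP5MF of complex V (950 ± 243, SD, n = 3 each). The least abundant were NDUFV3 (12.2 ± 3.28 TPM), SDHD (61.3 ± 1.63), UQCR10 (102 ± 16), COX7B (85.2 ± 11.3) and ATP5F1E, the epsilon subunit of the ATP synthase (43.3 ± 6.25, SD, n = 3 each). Complex II therefore had the narrowest range and, at a median of 98.3 TPM, the lowest median member, against 150 TPM for complex I, 154 for complex III, 257 for complex V and 557 for complex IV.

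In NCI-H460 the most abundant members were NDUFS5 of complex I (562 ± 19.5 TPM), SDHC (199.8 ± 3.01), UQCRQ (949 ± 13.8), COX7C (1008 ± 118) and ATP5F1B, the catalytic beta subunit of the ATP synthase (1395 ± 1.38, SD, n = 2 each). The least abundant were NDUFV3 (18.6 ± 0.384 TPM), SDHD (87 ± 3.61), UQCRFS1 (38.8 ± 0.475), NDUFA4 (119 ± 6.72) and ATP5F1E (83 ± 4.71, SD, n = 2 each). The order of the complexes by median member was the same as in A549, from 123 TPM for complex II to 496 for complex IV. ATP5MC1, ATP5MC2 and ATP5MC3 encode the same mature subunit of the proton-carrying ring. They stood at 681 ± 132, 645 ± 57.7 and 299 ± 59.4 TPM in A549 control libraries (SD, n = 3), and at 638 ± 20.1, 778 ± 13.8 and 562 ± 16 in NCI-H460 (SD, n = 2). Their levels summed therefore came mostly from ATP5MC1 and ATP5MC2 in A549 and were more even in NCI-H460.

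The control libraries of the lines were compared as A549 minus NCI-H460. Of the 74 members, 4 were higher and 29 lower in A549, where 36.4% of all 14769 genes were called higher and 18.4% lower. The members' median difference was -0.31 on the log2 scale, against 0.21 over all genes. UQCRFS1, the Rieske iron-sulphur protein of complex III, had 119, 110 and 109 TPM in A549, against 38.5 and 39.1 TPM in NCI-H460. The lines did not overlap, and the log2 difference was 1.53 (SE 0.14, adjusted p = 1.9e-08). COX6B1, which sits on the intermembrane face of complex IV, was higher by 0.89, and NDUFB6 and NDUFB4, accessory subunits of the membrane arm of complex I, by 0.43 and 0.40.

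ATP5F1B had 735, 705 and 639 TPM in A549 control libraries, against 1394 and 1396 in NCI-H460, a log2 difference of -1.01 (SE 0.12, adjusted p = 4.82e-07). Complex V gave 8 of the 29 lower members, among them 4 of the 5 subunits of the F1 head, with ATP5F1D at -0.96, ATP5F1E at -0.94 and ATP5F1A at -0.37. Of the membrane ring genes, ATP5MC3 was lower in A549 (-0.93). Complex I gave 13 lower members, including the core subunit NDUFS1 (-0.88) and the accessory subunits NDUFA5 (-0.81) and NDUFC1 (-0.80). Complex II gave 3 (SDHB at -0.57, SDHD at -0.50 and SDHC at -0.38), complex III 3 (UQCRH at -0.68) and complex IV 2 (COX7C at -0.77 and COX7B at -0.63). SDHA, the flavoprotein of complex II, was not called. The gene's value in each line is uncertain for UQCRFS1, since names of 3 processed copies held 21.9% of the summed TPM of gene and copies over all libraries. After median-of-ratios scaling, which set the all-gene median to 0.00, 2 members were higher and 36 lower, and the share of all calls that were higher was 51.1% in place of 66.4%.

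**Figure D1:**
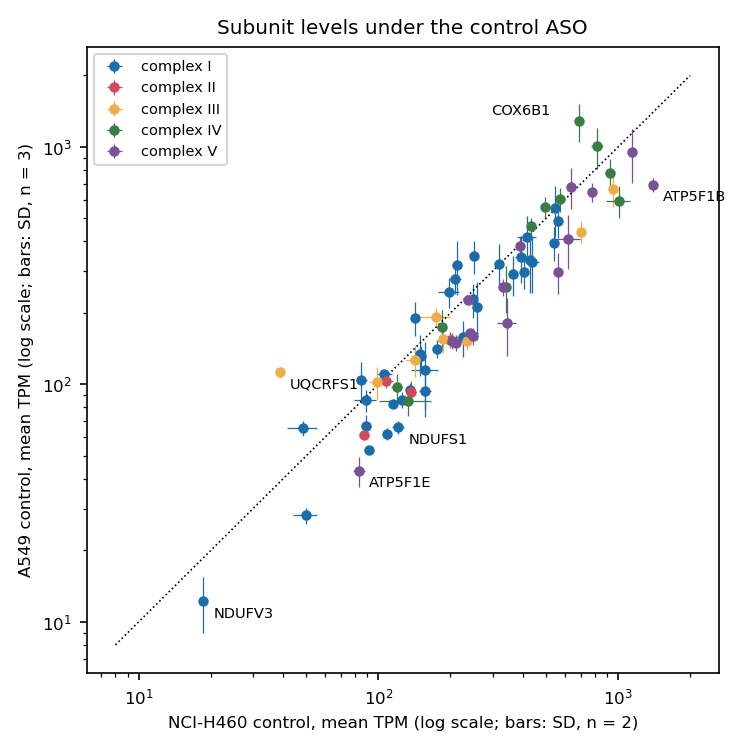
Mean TPM of the 74 subunit genes in A549 control libraries (vertical axis, log scale, SD bars, n = 3) against NCI-H460 control libraries (horizontal axis, log scale, SD bars, n = 2), coloured by complex, with a dotted line of equal levels. Most points lie below the line, ATP5F1B among them at 693 TPM in A549 and 1395 TPM in NCI-H460, while UQCRFS1 lies far above it at 113 TPM in A549 and 38.8 TPM in NCI-H460.

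Each ASO was then compared with the control ASO of its line, to ask which transcripts differ after an ASO aimed at either candidate. With all libraries and no block for replicate number, no member was called in 6 of the 8 comparisons. The exceptions were candidate 240 ASO3 in A549, with 3 members lower, and candidate 42 ASO3 in NCI-H460, with 22 higher and 1 lower. The ASOs of a line share their control libraries, so their fold changes are not independent of each other.

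**Figure D2:**
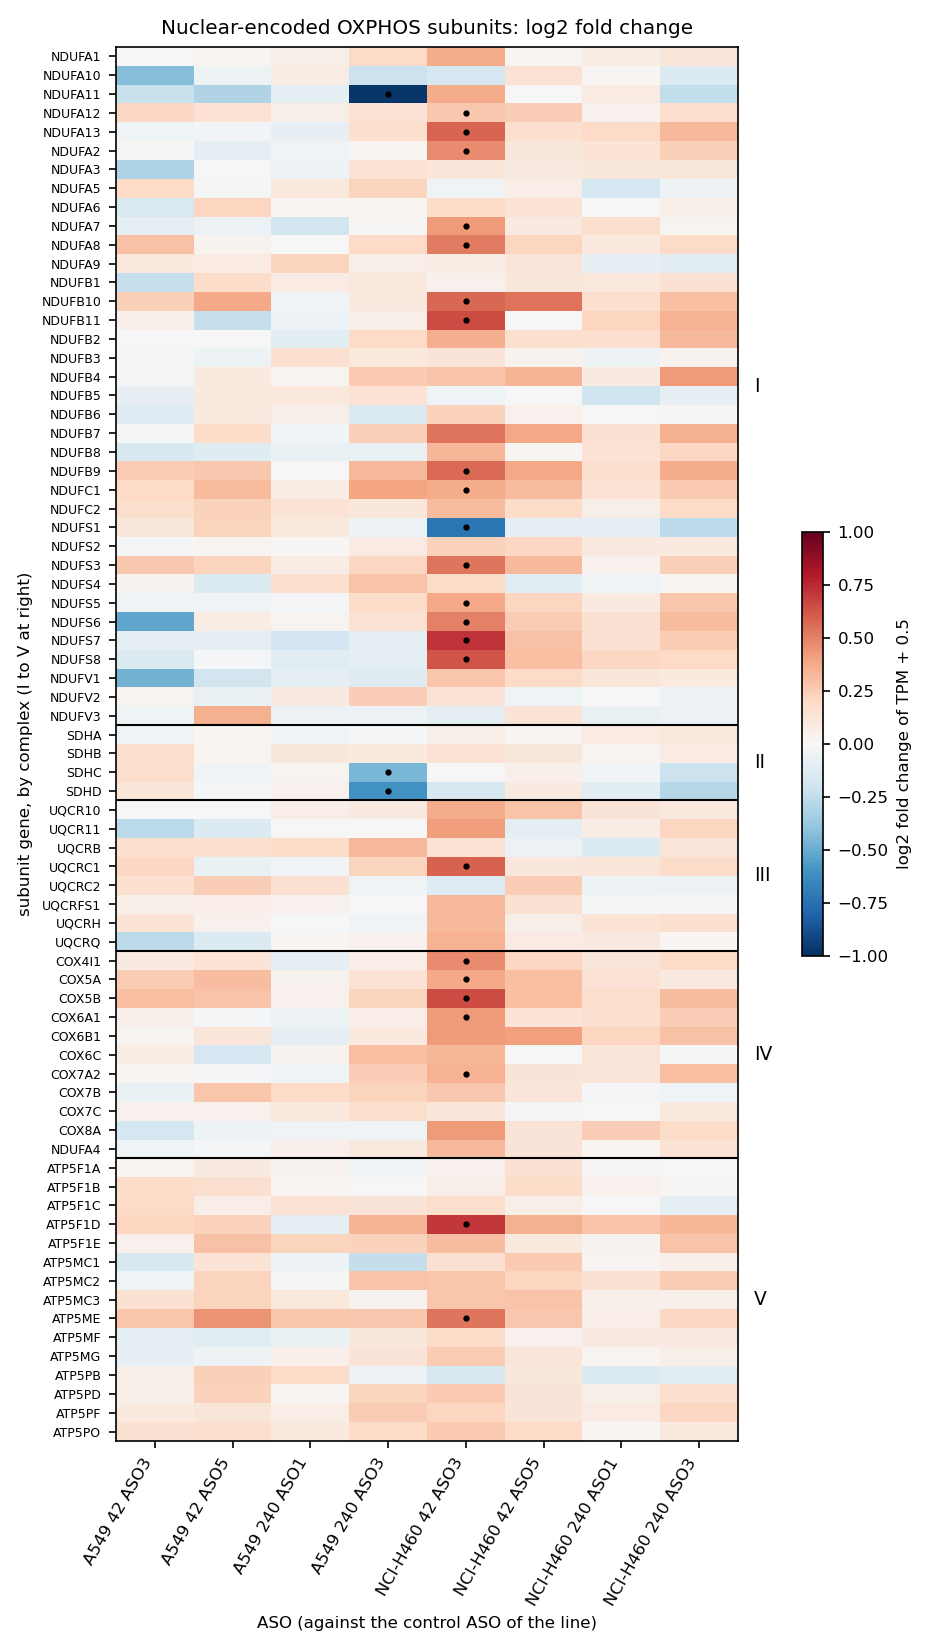
Log2 fold change of TPM + 0.5 for each ASO over the control ASO of its line (columns, A549 left and NCI-H460 right) for the 74 subunit genes (rows, grouped by complex I to V), on a colour scale from -1 to 1. Dots mark calls at an adjusted p under 0.05: NDUFA11, SDHC and SDHD in the A549 column of 240 ASO3, and 23 genes in the NCI-H460 column of 42 ASO3, of which NDUFS1 alone is lower.

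With candidate 240 ASO3 in A549, the membrane anchor genes of complex II, SDHC and SDHD, fell, and so did NDUFA11, an accessory subunit of the membrane arm of complex I. SDHC and SDHD encode the small membrane proteins that hold the heme and help to bind ubiquinone. The catalytic genes of the same complex, SDHA and SDHB (the iron-sulphur protein), were not called. No member rose in this fit, which did not use replicate numbers. With the replicate number as a block, 5 members were called higher, named below, where 25.1% of all genes were called. Without the block, 13.8% of all 14740 genes were called and 7.82% were lower. The 3 lower members are 4.05% of 74, a smaller share than over all genes.

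SDHD lies on hg38 chr11:112086824-112120016, on the plus strand. It had 42.3, 39.9 and 38.2 TPM with candidate 240 ASO3, against 59.8, 63 and 61.1 TPM in control libraries. The groups did not overlap, and the ASO3 mean was 65.5% of control (40.1 ± 2.05 TPM with ASO3 and 61.3 ± 1.63 in control libraries, SD, n = 3 each, log2 fold change -0.61, SE 0.09, adjusted p = 0.000321).

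SDHC lies on hg38 chr1:161314381-161363206, on the plus strand. It had 125, 106 and 106 TPM with candidate 240 ASO3, against 164, 157 and 142 TPM in control libraries. Again no ASO3 library reached the lowest control library, and the mean was 72.9% of control, a log2 fold change of -0.46 (SE 0.09, adjusted p = 0.0048).

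NDUFA11 lies on hg38 chr19:5891276-5904006, on the minus strand. It had 241, 128 and 137 TPM with candidate 240 ASO3, against 401, 287 and 276 TPM in control libraries. Replicate 3 was the highest library of each group, the groups did not overlap, and the mean was 52.4% of control (168 ± 62.8 TPM with ASO3 and 321 ± 69.3 in control libraries, SD, n = 3 each, log2 fold change -0.97, SE 0.22, adjusted p = 0.00898).

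SDHA had 127, 91.3 and 93.5 TPM with candidate 240 ASO3, against 112, 100.1 and 98.4 TPM in control libraries. SDHB had 120.2, 90.9 and 89.8 TPM with ASO3, against 104, 90.5 and 84.4 TPM in control libraries. For these catalytic genes the groups overlapped, and replicate 3 was the highest library of each group. The summed TPM of complex II was 357 ± 50.2 with ASO3 and 412 ± 27.6 in control libraries (SD, n = 3 each), or 86.5% of control. The sums of complexes I, III, IV and V stood at 108%, 107%, 110% and 109%, and these higher sums rested on replicate 3. In replicates 4 and 5, complex I summed to 6451 and 6556 TPM with ASO3, against 6668 and 6383 in control libraries. Complex III summed to 1713.5 and 1744 against 1828 and 1801, and complex IV to 5427 and 5444 against 5567 and 5200. Complex V summed to 4767 and 5123 against 5051 and 4843. Complex II stayed lower in these replicates, at 328 and 327 against 410 and 385.

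**Figure D3:**
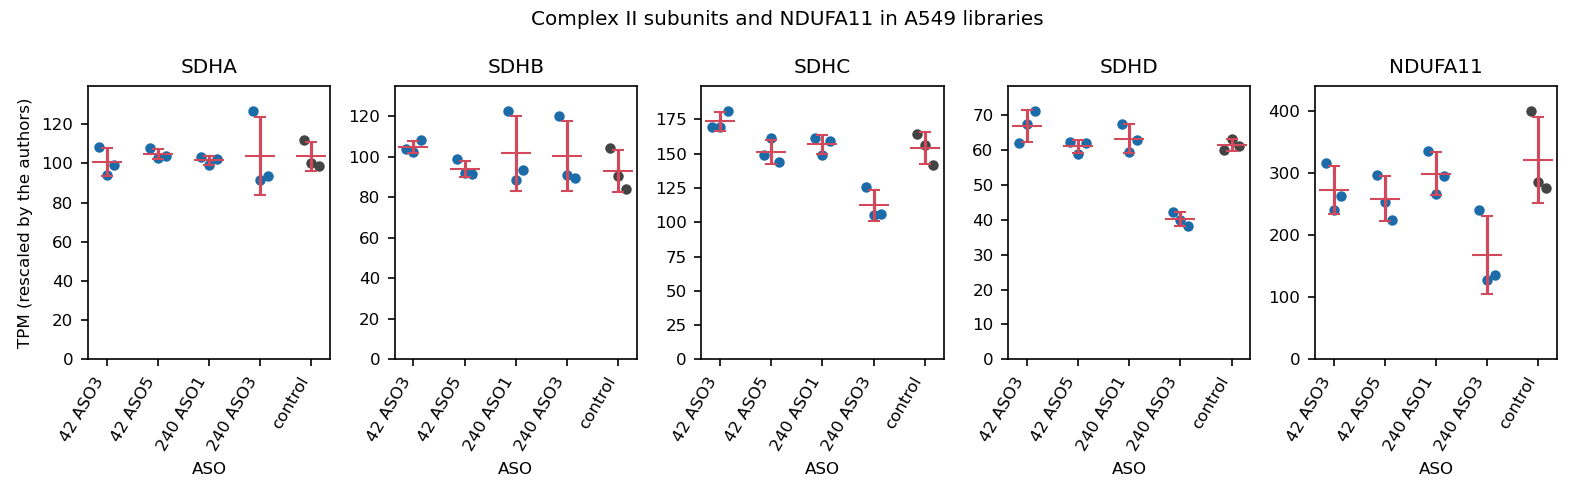
TPM of the 4 complex II subunit genes and NDUFA11 in each A549 library, by ASO (dots, blue for the ASOs to a candidate and grey for the control ASO), with group means and SD (red, n = 3). SDHC, SDHD and NDUFA11 are lower with 240 ASO3 than in every control library, at 72.9%, 65.5% and 52.4% of the control mean, while SDHA and SDHB overlap with control.

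The other 71 members were not called with candidate 240 ASO3. Over all 74 the median log2 fold change was 0.11, with 55 above 0, against -0.01 over all genes. By complex the median was 0.11 for complex I, -0.23 for complex II, 0.02 for complex III, 0.15 for complex IV and 0.13 for complex V. The highest members of each complex were NDUFC1 at 0.40 (adjusted p = 0.0741), SDHB at 0.10, UQCRB at 0.33, COX6C at 0.30 and ATP5F1D at 0.34, and the lowest of complexes III to V were UQCRH at -0.04, COX8A at -0.04 and ATP5MC1 at -0.24. These libraries were paired by replicate number. With that number as a block the same 3 members were lower and 5 were called higher: NDUFC1 (0.40), NDUFB9 (0.32) and NDUFB4 (0.26) of complex I, and ATP5F1D (0.34) and ATP5MC2 (0.29) of complex V, where 25.1% of all genes were called.

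Replicate 3 of this group, the library that stood apart, had a summed TPM over the members of 30221, against 18687 and 19195 in the other libraries of its group. Replicate 3 had the highest sum in every A549 group, with 24645 TPM in control libraries, where replicates 4 and 5 had 19524 and 18612. Without replicate 3 of the ASO3 group alone, its control partner kept, the members' median log2 fold change was -0.13 and 5 members were lower. Without replicate 3 in every A549 group, a choice made after seeing the data, the median was 0.00, 6 members were lower and 1 higher, and 24.8% of all genes were called. SDHD (-0.66), SDHC (-0.49) and NDUFA11 (-1.09) were called in that fit too. Fitted to the compared groups alone, 1 member was called lower. Exons of SDHC overlap CFAP126 by 774 bases and those of SDHD overlap TIMM8B by 26 bases, each on the opposite strand, and NDUFA11 overlaps AC024592.3 on the same strand. How strand was handled is not known here, so reads of these pairs may not be fully separated.

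The ASOs to candidate 240 differed from each other at the same genes. ASO3 minus ASO1 in A549 gave a log2 difference of -0.65 for SDHD (SE 0.09, adjusted p = 0.000184), -0.48 for SDHC (SE 0.09, adjusted p = 0.00321) and -0.88 for NDUFA11 (SE 0.22, adjusted p = 0.014), where 16.7% of all genes were called. SDHD had 42.3, 39.9 and 38.2 TPM with ASO3, against 67.4, 59.2 and 62.8 TPM with ASO1. With the replicate block, 4 members were lower, NDUFA10 (-0.29) being the additional one, and 4 higher (ATP5F1D at 0.43, NDUFB9 at 0.33, NDUFC1 at 0.32 and ATP5MC2 at 0.30). In that fit 29.9% of all genes were called. Without replicate 3 in every A549 group, 10 members were lower and 2 higher, where 25.2% of all genes were called. The NDUFA11 call was lost without any 1 of 3 libraries (ASO1 replicate 3, ASO3 replicate 4 or ASO3 replicate 5).

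With candidate 240 ASO1 against control in A549, limma called 0 members and 0% of all genes, and 267 of 14740 genes had an unadjusted p under 0.05. The members' median was 0.03 (0.01 over all genes) and their range -0.19 to 0.28. The farthest members were NDUFA9 at 0.22, NDUFS7 at -0.19, UQCRB at 0.18, COX7B at 0.19 and ATP5ME at 0.28, each with an adjusted p of 1. SDHC and SDHD stood at 157 ± 6.71 and 63.1 ± 4.1 TPM with ASO1, against 154 ± 11.5 and 61.3 ± 1.63 in control libraries (SD, n = 3 each).

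With candidate 42 ASO3 in A549 no member was called, where 10.1% of all genes were. The members' median was 0.03 (0.02 over all genes). The lowest members were subunits of complex I: NDUFS6, which binds zinc in the NADH-oxidising part of the complex, at -0.52 (adjusted p = 0.186), NDUFV1, the core subunit that binds NADH and the flavin, at -0.47 (adjusted p = 0.0631), and NDUFA10 at -0.43 (adjusted p = 0.0736). NDUFV1 had 103, 93 and 92.6 TPM with ASO3, against 165, 116 and 124 TPM in control libraries, and the groups did not overlap. NDUFA10 had 70.5, 60.4 and 61.1 TPM with ASO3, against 93.4, 83.4 and 81.3 TPM in control libraries, again with no overlap. In the authors' deposited table, 2 members had a q-value under 0.05, NDUFA10 (q = 0.0195) and NDUFV1 (q = 0.0432), both lower. Of all genes there, 2115 of 18736 had a q-value under 0.05. Without replicate 3 in every A549 group, 10 members were called higher and 3 lower, where 8.4% of all genes were higher and 12.3% lower, so the count of 0 depends on that replicate. The farthest members of the other complexes were SDHB at 0.18, UQCR11 at -0.27, COX5B at 0.30 and ATP5ME at 0.28.

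With candidate 42 ASO5 in A549 no member was called, where 3.82% of all genes were. The members' median was 0.06 (0.02 over all genes), 44 of 74 lay above 0, and the range was -0.30 (NDUFA11) to 0.45 (ATP5ME). NDUFB10, an accessory subunit of the membrane arm of complex I, stood at 0.38 (adjusted p = 0.424) and COX5A of complex IV at 0.31 (adjusted p = 0.441). In the authors' deposited table these were the members with a q-value under 0.05 (0.0239 and 0.0295). Of all genes there, 1031 of 18556 had a q-value under 0.05. Without replicate 3 in every A549 group, 10 members were called higher and 0 lower, where 4.75% of all genes were higher. UQCRC2, a core subunit of complex III, stood at 0.24 and COX6C at -0.17. ASO5 minus ASO3 called no member, where 10.7% of all genes were called. Here too the numbers paired the libraries. With the block, 5 members were higher with ASO5 (NDUFS6 at 0.59, NDUFV3 at 0.40, NDUFA10 and NDUFA6 at 0.37 and NDUFV1 at 0.29) and NDUFA8 was lower (-0.26), all of complex I, where 21.4% of all genes were called. Without replicate 3 in every A549 group, 9 members were higher and 2 lower, where 22.2% of all genes were called.

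With candidate 42 ASO3 in NCI-H460, 22 members rose and NDUFS1 fell. The members that rose belonged to complex I (14 of 36), complex IV (5 of 11), complex V (2 of 15) and complex III (1 of 8), and none to complex II. This was the comparison with the most calls, 46% of all 13774 genes, 13.2% higher and 32.8% lower, so most called genes fell while most called members rose. The members called higher were 29.7% of 74 and those called lower 1.35%. The median log2 fold change of the members was 0.30, with 65 of 74 above 0, against -0.20 over all genes.

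Among the core subunits of complex I, which carry the electron path, NDUFS3, NDUFS7 and NDUFS8 rose and NDUFS1 fell. NDUFS7, whose protein holds the last iron-sulphur cluster before ubiquinone, had 336 and 199 TPM with candidate 42 ASO3, against 171 and 143 TPM in control libraries. The groups did not overlap, and the log2 fold change was 0.72 (SE 0.21, adjusted p = 0.0212). NDUFS8, another iron-sulphur subunit, averaged 338 TPM with ASO3 and 213 in control libraries (0.63, adjusted p = 0.0184). NDUFS3 had 137 and 111 TPM with ASO3, against 81.7 and 88.2 TPM in control libraries (0.54, SE 0.12, adjusted p = 0.00641). Its exons overlap PTPMT1, a gene at 40.2 TPM on the same strand, by 721 bases, and CELF1 on the opposite strand by 234 bases. Reads of these genes may not be fully separated.

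NDUFS1, the largest core subunit and a holder of iron-sulphur clusters at the NADH-oxidising end, lies on hg38 chr2:206114817-206159509, on the minus strand. It had 67.8 and 77.9 TPM with candidate 42 ASO3, against 126 and 116 TPM in control libraries. Its ASO3 mean was 72.9 ± 7.11 TPM and its control mean 121 ± 6.81 (SD, n = 2 each, log2 fold change -0.73, SE 0.11, adjusted p = 0.00117). The other NCI-H460 ASO groups were all above the ASO3 libraries, at 112 and 114 TPM with candidate 42 ASO5, 117 and 110.2 with candidate 240 ASO1, and 109.6 and 93.1 with candidate 240 ASO3. NDUFS1 exons overlap 19 bases of EEF1B2, a gene at 923 TPM on the opposite strand.

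Of the 29 accessory subunits of complex I, 11 rose and 0 fell. NDUFA8, a small cysteine-rich subunit of the intermembrane face, had 234 and 200.3 TPM with candidate 42 ASO3, against 149.6 and 152 TPM in control libraries (log2 fold change 0.52, SE 0.10, adjusted p = 0.00335). NDUFB9 had 404 and 338 TPM with ASO3, against 249 and 249 TPM in control libraries (0.57, SE 0.11, adjusted p = 0.00407). NDUFB10 had 640.2 and 457 TPM with ASO3, against 374 and 352 TPM in control libraries (0.58, SE 0.15, adjusted p = 0.0141). For all 3 of these genes both ASO3 libraries lay above both control libraries, with replicate 1 the higher.

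NDUFB11 had 750.1 and 512 TPM with candidate 42 ASO3, against 408 and 379 TPM in control libraries (0.66, SE 0.16, adjusted p = 0.0106). The remaining accessory subunits that rose were NDUFA13 (0.58), NDUFS6 (0.50), NDUFA2 (0.47), NDUFA7 (0.42), NDUFS5 (0.38), NDUFC1 (0.37) and NDUFA12 (0.27). NDUFA7 exons overlap RPS28, a ribosomal protein gene at 1641 TPM on the opposite strand, by 89 bases. NDUFB11 exons overlap RBM10 by 636 bases and NDUFB9 exons overlap TATDN1 by 187 bases, each on the opposite strand. Of the 74 members, 29 overlap exons of another gene at a mean of 1 TPM or more.

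In complex III the single called member was UQCRC1, a core subunit, on hg38 chr3:48599002-48610976, on the minus strand. It had 319 and 244 TPM with candidate 42 ASO3, against 187 and 185 TPM in control libraries (log2 fold change 0.59, SE 0.13, adjusted p = 0.00579). Its partner core subunit UQCRC2 had 213 and 216 TPM with ASO3, against 226 and 244 TPM in control libraries, and was not called (-0.13, adjusted p = 0.238). In complex IV, all 11 members lay above 0 and COX5B, a zinc-binding subunit, had 629 and 460 TPM with ASO3, against 346 and 338 TPM in control libraries (0.65, SE 0.16, adjusted p = 0.0106). COX4I1 (0.47), COX6A1 (0.42), COX5A (0.38) and COX7A2 (0.35) were the other called members, and COX7C was lowest (0.12). For COX7A2, names of 3 processed copies held 37.9% of the summed TPM of gene and copies, so its level is uncertain.

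In complex V, ATP5F1D, a subunit of the rotating central stalk, had 699 and 449 TPM with candidate 42 ASO3, against 367 and 321 TPM in control libraries (log2 fold change 0.71, SE 0.19, adjusted p = 0.0144). ATP5ME, a small membrane subunit, averaged 897 TPM with ASO3 and 619.9 in control libraries (0.54, adjusted p = 0.0385). Its exons overlap MYL5 on the opposite strand by 579 bases. The catalytic subunit gene ATP5F1B had 1515 and 1394 TPM with ASO3, against 1394 and 1396 TPM in control libraries, and the groups overlapped. ATP5PB of the peripheral stalk was lowest (-0.16, adjusted p = 0.277). In complex II, SDHA had 118 and 108 TPM with ASO3, against 113 and 103 in control libraries, and SDHD had 74.2 and 81.9 with ASO3, against 84.5 and 89.6 in control libraries. SDHB stood at 0.15 (adjusted p = 0.199) and SDHD at -0.16 (adjusted p = 0.214), and the complex's median was 0.03, against 0.32 for complex I, 0.34 for complex III, 0.38 for complex IV and 0.26 for complex V.

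**Figure D4:**
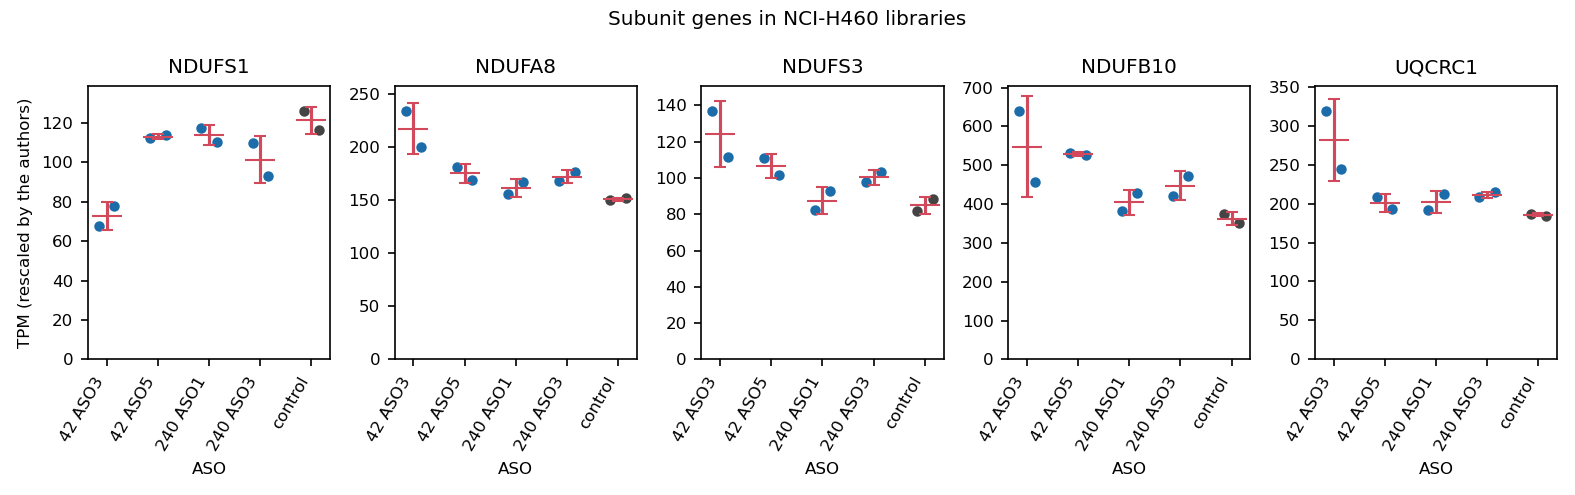
TPM of NDUFS1, NDUFA8, NDUFS3, NDUFB10 and UQCRC1 in each NCI-H460 library, by ASO (dots, blue for the ASOs to a candidate and grey for the control ASO), with group means and SD (red, n = 2). With 42 ASO3 NDUFS1 is lower than in both control libraries (67.8 and 77.9 TPM with ASO3, 126 and 116 TPM in control libraries), and the other 4 genes are higher.

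Summed over a complex, the TPM with candidate 42 ASO3 in NCI-H460 was 131% of control for complex I, 102% for complex II, 125% for complex III, 131% for complex IV and 118% for complex V. The sums over all 74 members were 34207 and 27098 TPM with ASO3, against 24207 and 24460 TPM in control libraries. As a share of the column sum the members made up 2.82 ± 0.13% with ASO3 and 2.5 ± 0.035% in control libraries (SD, n = 2 each). Scaling moved the whole distribution. After median-of-ratios scaling the all-gene median was 0.01, the members' median 0.53 and 48 members were higher, with 50.8% of all calls higher in place of 28.7%. After rescaling each column to 1e6 the all-gene median was -0.34, the members' median 0.14 and 19 members were higher, with 18.1% of all calls higher. The members' median minus that of all genes was 0.50, 0.52 and 0.49 under the deposited scaling, median-of-ratios and rescaling.

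The count of members called higher rested on few libraries. Leaving out each library of the compared groups in turn, the members' median log2 fold change ran from 0.15 to 0.47. The count was 6 when the compared groups were fitted alone, a fit whose share of all genes was not computed. NDUFS1 (lower) and NDUFA8, NDUFB9, NDUFS3 and UQCRC1 (higher) kept their calls in all 14 alternatives. In the authors' deposited table, 49 members had a q-value under 0.05 and a positive log2 fold change and 5 a negative one. Of all genes there, 9192 of 18632 had a q-value under 0.05 in either direction.

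Gene length moved with this comparison, and not with it alone. Across 11417 protein-coding genes the Spearman correlation of gene span with log2 fold change was -0.57, and across the 74 members it was -0.46. Over protein-coding genes in NCI-H460 it was -0.38 with 42 ASO5, -0.34 with 240 ASO1 and -0.47 with 240 ASO3. In A549 it was -0.33 with 240 ASO3, -0.17 with 42 ASO3, -0.13 with 42 ASO5 and 0.28 with 240 ASO1. Across the members it was 0.01 with 240 ASO3 in A549, where the lower SDHC and SDHD span 48826 and 33193 bp. Genes share libraries and are not independent replicates, so these are descriptions. The members are short: 31 span under 10000 bp, 40 span 10000 to 50000 bp and 3 more than that, from 1895 bp (ATP5ME) to 133294 bp (NDUFA10). With candidate 42 ASO3 in NCI-H460, the median log2 fold change under 10000 bp was 0.35 for members and 0.29 for all protein-coding genes. From 10000 to 50000 bp it was 0.24 for members and -0.11 for all. NDUFS1 spans 44693 bp and lay below the median of its length class. The part of gene length in the members' differences was not tested.

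**Figure D5:**
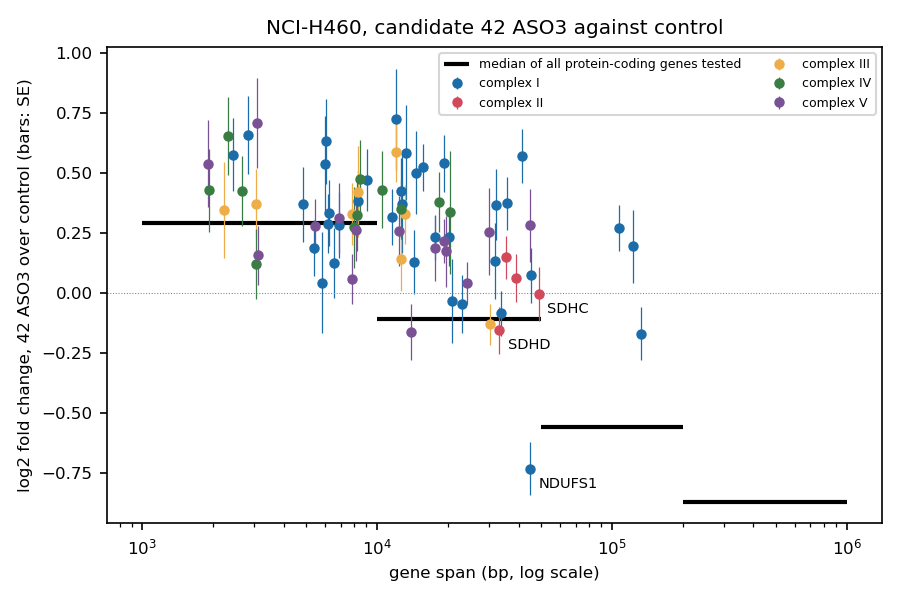
Log2 fold change of the 74 subunit genes with 42 ASO3 over control in NCI-H460 (vertical axis, bars SE) against gene span in bp (horizontal axis, log scale), coloured by complex, with black lines at the median of all protein-coding genes tested in each of 4 length classes (the outer lines stand for all shorter and all longer genes). The black lines fall with length, from 0.29 in the shortest class to -0.87 in the longest, and most subunit genes of 10000 to 50000 bp lie above their line at -0.11, while NDUFS1 lies below it.

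The genes encoded in mitochondrial DNA, which supply the remaining subunits of complexes I, III, IV and V, were also higher in this comparison. A higher sum was not particular to it. Their summed TPM in NCI-H460 was 123% of control with 240 ASO1, 118% with 240 ASO3 and 106% with 42 ASO5, against 129% with 42 ASO3. As a share of the column sum they made up 8.41% with 240 ASO1 and 8.36% with 42 ASO3, against 7.24% in control libraries. With candidate 42 ASO3, 7 of 13 rose (53.8%, where 13.2% of all genes were higher) and 0 fell. MT-ATP6 stood at 0.71 (7505 TPM with ASO3 and 4595 in control libraries, adjusted p = 0.00457), MT-ND6 at 0.55 and MT-ND1 at 0.55. Among genes outside the name rule that encode subunits or partners, 3 of 6 tested rose: NDUFAB1, the acyl carrier protein (0.38), CYC1, cytochrome c1 (0.38), and ATP5IF1, the inhibitor of the ATP synthase (0.27). Of 14 regulators of these genes, 2 rose (14.3%) and 7 fell (50%), where 13.2% of all genes were higher and 32.8% lower. GABPA, the DNA-binding part of GABP, fell by 1.01, TFAM, which packages and transcribes mitochondrial DNA, by 0.93, and MTERF1 by 0.83, while ESRRA, a nuclear receptor of mitochondrial genes, rose by 0.59.

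Of 26 assembly factors for complex IV, 4 rose (15.4%) and 5 fell (19.2%) with candidate 42 ASO3 in NCI-H460, close to the all-gene 13.2% for higher and below the 32.8% for lower. Of the called genes, SCO2, a copper chaperone, was highest at 0.72, and CMC2 (-0.78) and LRPPRC, which stabilises mitochondrial transcripts (-0.70), were lowest. Of 10 factors for complexes II and III, 2 rose (SDHAF1 at 0.69 and SDHAF2 at 0.46) and LYRM7, a chaperone of the Rieske protein, fell (-1.20). Of 16 for complex I, NDUFAF1 rose (0.30) and NUBPL, which delivers iron-sulphur clusters, fell (-1.33). Of 5 for complex V, FMC1 rose (0.57) and TMEM242 (-1.51) and TMEM70 (-0.34) fell. Of 13 citric acid cycle genes, 7 fell (53.8%, where 32.8% of all genes did) and 1 rose, with SUCLG2 at -1.33, DLD at -1.21 and IDH3A at -0.63, while IDH3B rose by 0.64.

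With candidate 240 ASO3 in A549, where 7.82% of all genes were lower, 4 of 16 assembly factors of complex I fell (25%, ACAD9 at -0.99, NUBPL at -0.85 and FOXRED1 at -0.60 among them), 3 of 26 of complex IV (11.5%, CMC2 at -1.48, CMC1 at -1.28 and the insertase COX18 at -0.66) and UQCC1 of complex III (-0.53), and none rose. TFB2M, a factor of mitochondrial transcription, fell to 12.4 TPM with ASO3, against 33 in control libraries (-1.38), and SUCLG2 fell by 1.18. With candidate 42 ASO3 in A549, where 10.1% of all genes were called, TMEM242 fell by 1.99, CMC2 by 1.03, ATPAF2 by 0.60, COA1 by 0.44 and TTC19 by 0.42, and SCO1 rose by 0.45, while 3 citric acid cycle genes fell (SUCLG2 by 0.98, IDH3G by 0.68 and OGDH by 0.54). None of the 13 mitochondrially encoded genes was called with any ASO in A549.

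With candidate 42 ASO5 in NCI-H460 no member was called, where 0.508% of all genes were. The members' median was 0.13 (0.01 over all genes) with 65 of 74 above 0, led by NDUFB10 at 0.54 (adjusted p = 0.155), COX6B1 at 0.41, ATP5F1D at 0.36 and UQCR10 at 0.28. NDUFB10 had 532 and 526 TPM with ASO5, against 374 and 352 TPM in control libraries, with no overlap. Between the ASOs to candidate 42, ASO5 minus ASO3, 2 members were higher and 3 lower, where 33.3% of all genes were called. NDUFS1 (0.63) and UQCRC2 (0.38) were higher with ASO5, and NDUFB11 (-0.66), UQCRC1 (-0.48) and NDUFA8 (-0.31) were lower. The all-gene median was 0.21, and after median-of-ratios scaling, at -0.01, the counts were 1 higher and 18 lower and 52.6% of all calls were higher in place of 83.1%. Leaving out each library of the compared groups in turn, the members' median ran from -0.278 to -0.004.

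With candidate 240 ASO1 in NCI-H460, limma called 0 members and 0% of all genes, and 493 of 13774 genes had an unadjusted p under 0.05. The members' median was 0.08 (-0.01 over all genes), with ATP5F1D highest at 0.28 and NDUFB5 lowest at -0.20. With candidate 240 ASO3 no member was called, where 5.66% of all genes were. The members' median was 0.12 (-0.03 over all genes), NDUFB4 of complex I was highest (0.43, adjusted p = 0.0762) and SDHD lowest (-0.29, adjusted p = 0.116). SDHD had 75.8 and 66.7 TPM with ASO3, against 84.5 and 89.6 TPM in control libraries, and SDHC had 187 and 159 TPM with ASO3, against 198 and 202 TPM in control libraries. NDUFA11 had 277 and 261 TPM with ASO3, against 320.1 and 319.6 TPM in control libraries. None of these 3 genes, called lower in A549, was called here. In the authors' deposited table, 10 members had a q-value under 0.05, all higher, led by NDUFB4 (log2 0.44) and NDUFB9 (log2 0.38). Of all genes there, 1308 of 18930 had a q-value under 0.05 in either direction. ASO3 minus ASO1 called no member, where 2.92% of all genes were called. With ASO3, CMC2 (-0.78), CMC1 (-0.58) and LRPPRC (-0.53) fell among the assembly factors, SUCLG2 fell (-0.80) and POLRMT, the mitochondrial RNA polymerase, rose (0.53).

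The responses of the lines to an ASO were compared as the log2 fold change in A549 minus that in NCI-H460. For candidate 42 ASO3, 3 members differed, all of complex I, where 19.7% of all genes did. NDUFS1 gave 0.85 (SE 0.16, adjusted p = 0.00321): it had 69.9, 71.9 and 71.9 TPM with ASO3 and 61.3, 69.5 and 66.8 TPM in control libraries of A549, and fell in NCI-H460. NDUFV1 gave -0.75 (SE 0.22, adjusted p = 0.0274), with the A549 values given above, and was at 208 and 159.9 TPM with ASO3, against 154 and 146 TPM in control libraries, in NCI-H460. NDUFS6 gave -1.02 (SE 0.34, adjusted p = 0.0415), at 259, 202 and 225 TPM with ASO3, against 441, 286 and 276 TPM in control libraries of A549, and at 687 and 541 TPM with ASO3, against 449 and 413 TPM in control libraries of NCI-H460. NDUFV1 and NDUFS6 lost their calls without any 1 of 6 of the 10 libraries, and NDUFS1 kept its call without each. After median-of-ratios scaling the all-gene median was -0.08 in place of 0.15, and 46.7% of all calls were higher in place of 78.6%.

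For the other ASOs no member's response differed between the lines, where 0.0339% of all genes did with candidate 42 ASO5, 0% with candidate 240 ASO1 and 1.21% with candidate 240 ASO3. For candidate 240 ASO1, limma gave 410 of 14769 genes an unadjusted p under 0.05. The lower SDHC, SDHD and NDUFA11 of A549 with candidate 240 ASO3 were thus not shown to differ from NCI-H460.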

How the data were processed

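Per the labels' protocols, libraries came from total RNA and the NEBNext Ultra kit. The submitters' processing notes name kallisto, sleuth 0.30 and hg38. No annotation or strand setting is named. The deposited expression table gives a signal for each gene name, namely the authors' TPM rescaled between libraries, for 59427 names in 25 libraries. The authors' 8 comparison tables hold, per the file headers, a log2 fold change, a q-value and a mean signal per gene. How they adjusted the q-value is not stated there, and no value from them is used unless named as theirs.

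Tests used the log2(TPM + 0.5) scale, on which changes of low genes are understated, keeping genes that averaged 1 TPM or more in the line (14740 in A549, 13774 in NCI-H460, 14769 for both lines). limma 3.58.1 (R 4.3.3) fitted group means to the 5 groups of each line with a trended eBayes step, and over all 25 libraries for differences between lines. Calls required an adjusted p under 0.05 (Benjamini-Hochberg over every gene tested in that comparison, two-sided test). The procedure was tested on simulated data with independent noise for each gene and a small set of changed genes. These held no replicate effect and no shift of most genes, so behaviour under such effects was not tested. Errors are SD for levels and SE for fold changes.

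Members, companion lists (assembly factors, mitochondrially encoded genes, regulators, citric acid cycle) and tests were chosen with earlier results of these data known. Named are the called members, the extremes of each complex in each comparison and in control libraries, complex II, the ATP5MC genes, and up to 3 called genes of each companion list and comparison. The other called genes of the companion lists were named after their values were seen. Replicate numbers come from the titles. They were taken to pair libraries where same-numbered libraries of 3 pairs all deviated together (correlation over 0.1), which held for both candidate 240 ASOs against control and for both comparisons between ASOs in A549 (0.13 to 0.56). Spans and gene coordinates are those of the authors' tables. Overlaps of exons come from GENCODE v29 and promoters from RefSeq. Alternatives changed the pseudocount, filter, scaling, trend, libraries and block, and 1 added after seeing the data left out A549 replicate 3. No sequence is printed from chromosome 8, where COX6C, NDUFB9 and UQCRB lie.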

Additional observations from a re-analysis of the deposited data

Results flagged for a closer look

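3 results differed between the lines by a test of the difference itself, the response to candidate 42 ASO3 in A549 minus that in NCI-H460. NDUFS1 gave a log2 difference of 0.85, with a fold change of 0.11 in A549 and -0.73 in NCI-H460. NDUFV1 gave -0.75, with -0.47 in A549 and 0.28 in NCI-H460, and NDUFS6 gave -1.02, with -0.52 in A549 and 0.50 in NCI-H460. All are subunits of the NADH-oxidising part of complex I. They are 3 of the 74 members, where 19.7% of all genes differed. NDUFV1 and NDUFS6 lost their calls when each of 6 of the 10 libraries was left out, and NDUFS1 kept its call. The all-gene median of the difference in response was 0.15, and the causes were not tested. The groups hold 2 or 3 libraries, too few for a test of single outlying samples.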

How the results depend on the processing

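No member called in a comparison of ASOs or of responses changed sign there under any alternative. The signs of uncalled members, and of members in the comparison of control lines, were not checked. With the replicate block, members called higher and lower were 2 and 3 with candidate 42 ASO3 in A549 and 1 and 0 with candidate 42 ASO5, where the numbers did not meet the rule for pairing (correlations of 0.09 to 0.39 and 0.02 to 0.32), and 5 and 3 with candidate 240 ASO3. The block gave 5 and 1 for ASO5 minus ASO3 and 4 and 4 for ASO3 minus ASO1 in A549. Of all genes in A549 the block called 21.1% with 42 ASO3, 10.4% with 42 ASO5 and 25.1% with 240 ASO3. It called 21.4% for ASO5 minus ASO3 and 29.9% for ASO3 minus ASO1. In NCI-H460, with 2 pairs, it gave 22 and 1 with candidate 42 ASO3.

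After rescaling to 1e6, A549 had 2 higher with candidate 240 ASO3, 2 lower with 42 ASO3, 1 higher with 42 ASO5, 2 higher for ASO3 minus ASO1 and 3 higher for ASO5 minus ASO3. The control lines gave 7 higher and 44 lower, the response to 42 ASO3 gave 2 higher, and NCI-H460 gave 2 lower with 42 ASO3 and 4 higher for ASO5 minus ASO3. After rescaling without mitochondrially encoded transcripts the counts in A549 were 3 higher with candidate 240 ASO3, 2 higher and 3 lower with 42 ASO3, 2 higher and 5 lower for ASO3 minus ASO1, and 4 higher and 1 lower for ASO5 minus ASO3. The control lines gave 9 higher and 44 lower, the response 2 higher, and NCI-H460 2 lower with 42 ASO3 and 5 lower for ASO5 minus ASO3. Median-of-ratios scaling gave 2 higher between control lines, 48 higher with 42 ASO3 in NCI-H460, and 1 higher and 18 lower for ASO5 minus ASO3. After rescaling to 1e6, 34.1% of all calls with candidate 240 ASO3 in NCI-H460 were higher in place of 46.8%.

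Without a filter, 4 were higher with 42 ASO3 in NCI-H460, 0 lower for ASO5 minus ASO3 and 0 lower in the response. Without a trend 12 were higher with 42 ASO3 in NCI-H460. With only the compared groups 6 were higher there, 4 higher with candidate 240 ASO3 in NCI-H460, and 1 lower with candidate 240 ASO3 in A549. By the authors' deposited q-value the counts in A549 were 2 lower with 42 ASO3 and 2 higher with 42 ASO5. Of all genes there, 2115 of 18736 and 1031 of 18556 passed. In NCI-H460 the counts were 49 higher and 5 lower with 42 ASO3 and 10 higher with candidate 240 ASO3. There 9192 of 18632 and 1308 of 18930 genes passed.

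Leaving out each library in turn, candidate 240 ASO3 in A549 gave 0 to 1 higher and 3 to 5 lower, and ASO3 minus ASO1 gave 0 to 1 higher and 2 to 6 lower. In NCI-H460, 42 ASO3 gave 5 to 45 higher and 1 to 2 lower, and ASO5 minus ASO3 gave 1 to 3 higher and 0 to 25 lower. The control lines gave 2 to 5 higher and 22 to 35 lower, and the response to 42 ASO3 gave 0 to 6 lower. With replicate 3 left out of every A549 group, chosen after seeing the data, members called higher and lower were 10 and 3 with 42 ASO3, 10 and 0 with 42 ASO5, 1 and 6 with candidate 240 ASO3, 9 and 2 for ASO5 minus ASO3 and 2 and 10 for ASO3 minus ASO1. Where no share over all genes stands beside a member count, a shift of the members cannot be told from a shift of all genes. The cause of these shifts was not tested. A lone remaining library was assumed to vary like those of the other groups. Depth is unknown, so no counting error could be given.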
